A study of Mus musculus with 4 samples.

Results

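Interferon response genes are genes whose transcription is raised when a cell receives interferon, and 40 of them were followed here in 4T1, a carcinoma line from a mouse mammary tumour. Members were chosen by gene symbol. Of the 40 genes, 37 had at least 1 probe set that the platform annotation pairs with that symbol only, 57 probe sets in all, out of 45101 probe sets and 18193 genes so named on the array. Isg15, Oas1g and Ifi44 had none and were not analysed here. Where a gene had several, the brightest over the 4 arrays was used. After a filter that left out probe sets with a mean below a normalized signal of 19.4, 33 members remained among 11956 genes tested, while Oas2, Oas3, Mx1 and Mx2 fell below it.

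The samples comprised 2 of CD44v8-10-positive and 2 of CD44v8-10-negative 4T1 cells, numbered 1 and 2 in each group, and each was hybridised as total RNA to a one-colour Affymetrix array. CD44v8-10 is a splice form of the adhesion receptor CD44 that includes variant exons. All cells were grown in RPMI 1640 with bovine serum under normoxia and picked by hand under a dissecting microscope, and the labels name no interferon or other agent. The study asked how far the expression profiles of positive and negative cells differ. One cell line was used, and the labels do not say whether the samples came from separate cultures or what their numbers stand for, so p-values here speak only to the scatter among these arrays, part of which may be technical.

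The deposited arrays differed in brightness, with trimmed mean intensities of 236 and 195 on the arrays numbered 1 and 219 and 344 on those numbered 2, and they were quantile normalized. Krt8 and Krt18, keratins that mark epithelial cells such as this carcinoma, gave normalized signals from 7719 to 12998 over the 4 arrays. Of 7 listed carcinoma markers on the array, all above the filter, 3 passed limma's adjusted threshold as higher in CD44v8-10-positive cells: Cldn7 (log2 difference 2.31), Krt14 (1.97) and Epcam (1.34). The list had a median of 0.57 by CD44v8-10 and -0.043 by number, and its part in the results that follow was not tested. Ratios of 3' to 5' control probe sets for actin were 1.20 and 1.17 on the arrays numbered 1 and 1.35 and 1.25 on those numbered 2. For Gapdh they were 0.782 and 0.778 against 0.783 and 0.839.

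Interferons are secreted proteins that signal through cell-surface receptors and the kinases JAK1, JAK2 and TYK2. Type I interferon activates a complex that includes STAT2 and IRF9 and binds the interferon-stimulated response element (ISRE) in promoters, while interferon gamma acts mainly through the gamma-activated site (GAS). The induced genes encode sensors of foreign RNA, enzymes that degrade RNA or stop translation, membrane and GTPase effectors, and factors that amplify or end the signal. In carcinoma cells many of these genes are also transcribed at a low level without added interferon.

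Promoter sequences show the element that many of these genes share. RefSeq windows on mouse build GRCm38.p6, from 250 bases before to 50 after a transcription start, matched 31 of the 40 symbols. The ISRE core, searched on both strands as GAAA, any 2 bases and GAAA again, was present in windows of 16 of these 31 members, or 51.6%, and in 3.99% of the 27025 genes with a window. The GAS letters TTCNNNGAA, also searched on both strands, were found in 8 members, or 25.8%, against 9.55% of all genes. A match to either motif could overlap another. The windows of 4 members are shown 5′ to 3′ on the gene's strand, with ISRE core letters in capitals. Igtp, Rsad2 and Ifit1 were the members with the largest differences between arrays numbered 1 and 2, and Bst2 held the element and lay on the other side.
Ifit1 (chr19:34640639-34640938, plus strand): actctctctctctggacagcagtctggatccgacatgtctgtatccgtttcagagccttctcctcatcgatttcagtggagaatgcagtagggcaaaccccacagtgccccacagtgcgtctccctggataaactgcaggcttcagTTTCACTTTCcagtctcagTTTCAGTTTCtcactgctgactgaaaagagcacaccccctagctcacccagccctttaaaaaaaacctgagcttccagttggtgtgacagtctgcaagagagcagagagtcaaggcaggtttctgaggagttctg
Rsad2 (chr12:26456403-26456702, minus strand): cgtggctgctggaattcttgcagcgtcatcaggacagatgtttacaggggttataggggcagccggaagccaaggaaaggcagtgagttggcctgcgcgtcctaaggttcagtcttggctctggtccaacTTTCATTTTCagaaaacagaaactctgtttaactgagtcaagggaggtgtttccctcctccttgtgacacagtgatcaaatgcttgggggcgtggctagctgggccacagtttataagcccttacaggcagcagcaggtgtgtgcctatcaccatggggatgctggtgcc
Igtp (chr11:58199306-58199605, plus strand): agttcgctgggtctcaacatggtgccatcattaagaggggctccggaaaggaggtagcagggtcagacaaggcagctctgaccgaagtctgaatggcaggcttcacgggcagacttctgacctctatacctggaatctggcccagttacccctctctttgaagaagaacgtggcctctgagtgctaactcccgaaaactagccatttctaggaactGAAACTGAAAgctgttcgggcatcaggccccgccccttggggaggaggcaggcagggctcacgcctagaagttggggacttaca
Bst2 (chr8:71537423-71537722, minus strand): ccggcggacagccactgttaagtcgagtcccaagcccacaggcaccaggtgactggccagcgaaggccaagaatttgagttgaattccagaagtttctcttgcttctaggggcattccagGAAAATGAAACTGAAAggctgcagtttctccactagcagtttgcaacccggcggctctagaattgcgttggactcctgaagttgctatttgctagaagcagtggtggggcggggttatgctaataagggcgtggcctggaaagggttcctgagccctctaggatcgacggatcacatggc
In Ifit1 the 2 matches began 104 and 85 bases before the start, and in Igtp the single match began 34 bases before it. That of Rsad2 began at 120 bases before the start, and the overlapping pair of Bst2 at 130 and 124. A match describes the letters in the window and was not tested for binding.

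CD44v8-10-positive and negative cells did not differ detectably in interferon response genes. None of the 33 members passed the threshold of 0.05 for p-values that limma adjusted over 11956 genes (lowest in a member 0.985), and none had an unadjusted p under 0.05. Over all genes 0.0753% passed the adjusted threshold and 4.45% had an unadjusted p under 0.05, 2.68% higher and 1.76% lower in positive cells. Because these are bulk RNA samples, fewer responding cells and less RNA per cell cannot be told apart. The median member difference, positive minus negative on the log2(normalized signal + 16) scale, was 0.10 with quartiles of 0.0044 and 0.22, beside 0.028 for all genes. Median centring of each array gave -0.027 and no scaling gave -0.11, where all genes had medians of -0.070 and -0.15. Only Rsad2 and Ifit3 differed by more than 0.5 in either direction, 2 of 33 members where 9.81% of all genes did. Members lay above 0 in 25 of 33 cases, against 54.3% of all genes, and 8 lay below. With median centring 14 of 32 lay above 0 (39.2% of all genes), and with no scaling 8 of 32 did (28.2%).

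The signals of positive and negative arrays overlapped in most members. In 6 members the lower positive array exceeded the higher negative one (18.5% of all genes), and in 1, Ifit2, the order was turned (13.8%), 7 of 33 in all where 32.3% of all genes had groups that did not overlap. The median rested on single arrays: it was 0.0063 without positive replicate 1 and -0.084 without negative replicate 2, but 0.24 without positive replicate 2 and 0.25 without negative replicate 1. Among arrays numbered 1 the positive array was above the negative one in 18 of 33 members with a median of 0.052, and among arrays numbered 2 in 23 of 33 with a median of 0.15. Both held in 13 members, against 29.5% of all genes.

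By array number most members lay on 1 side of 0. Their signals were mostly higher on the 2 arrays numbered 1, of which 1 was positive and 1 negative, than on the 2 numbered 2. The median difference, number 1 minus number 2, was 0.31 with quartiles of 0.091 and 0.77, beside 0.0065 for all genes, and 28 of 33 members lay above 0 where 50.9% of all genes did. With no scaling between arrays the member median was -0.079 and that of all genes -0.36, so that members lay 0.28 above all genes there as well, while 13 of 32 members and 9.78% of all genes lay above 0. No member and no other gene passed the adjusted threshold (limma, 0 of 11956 genes or 0%, lowest adjusted p 0.611). At an unadjusted p under 0.05 there were 12 members, all higher on number 1, against 7.73% of all genes in either direction, 3.25% higher and 4.47% lower. A difference above 0.5 was seen in 13 of 33 members, where 4.6% of all genes had one. With no scaling 1 member had an unadjusted p under 0.05, as higher, where 12 of 11955 genes were higher and 923 lower.

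The counts that follow are of normalized signals. In 20 of 33 members both arrays numbered 1 lay above both numbered 2, and in 1, Bst2, both lay below. Among all genes 20.4% and 19.2% did so, or 39.6% together. In the deposited values, before normalization, Ifit1, Rsad2, Igtp, Ifi27 and Cmpk2 kept both arrays numbered 1 on top. In the rest of the 20 the arrays numbered 1 and 2 then overlapped. The highest of the 4 signals was on an array numbered 1 in 27 members (41.7% of all genes), with positive replicate 1 highest in 16 (19% of all genes) and negative replicate 1 in 11 (22.7%). Positive replicate 2 was highest in 5 (35%) and negative replicate 2 in 1 (23.4%). The lowest signal was on an array numbered 2 in 30 members (58.2% of all genes), and that array was negative replicate 2 in 20 (29.1%). Before normalization negative replicate 2, the brightest array, was lowest only in Rsad2 and Dhx58. Within each group, positive replicate 1 exceeded positive replicate 2 in 26 of 33 members with a median of 0.26, and negative replicate 1 exceeded negative replicate 2 in 29 of 33 with a median of 0.43, both in 24 members against 27.9% of all genes. The actin 3' to 5' ratios, lower on the arrays numbered 1, moved with the number as well, and their part in the result was not tested.

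**Figure D1:**
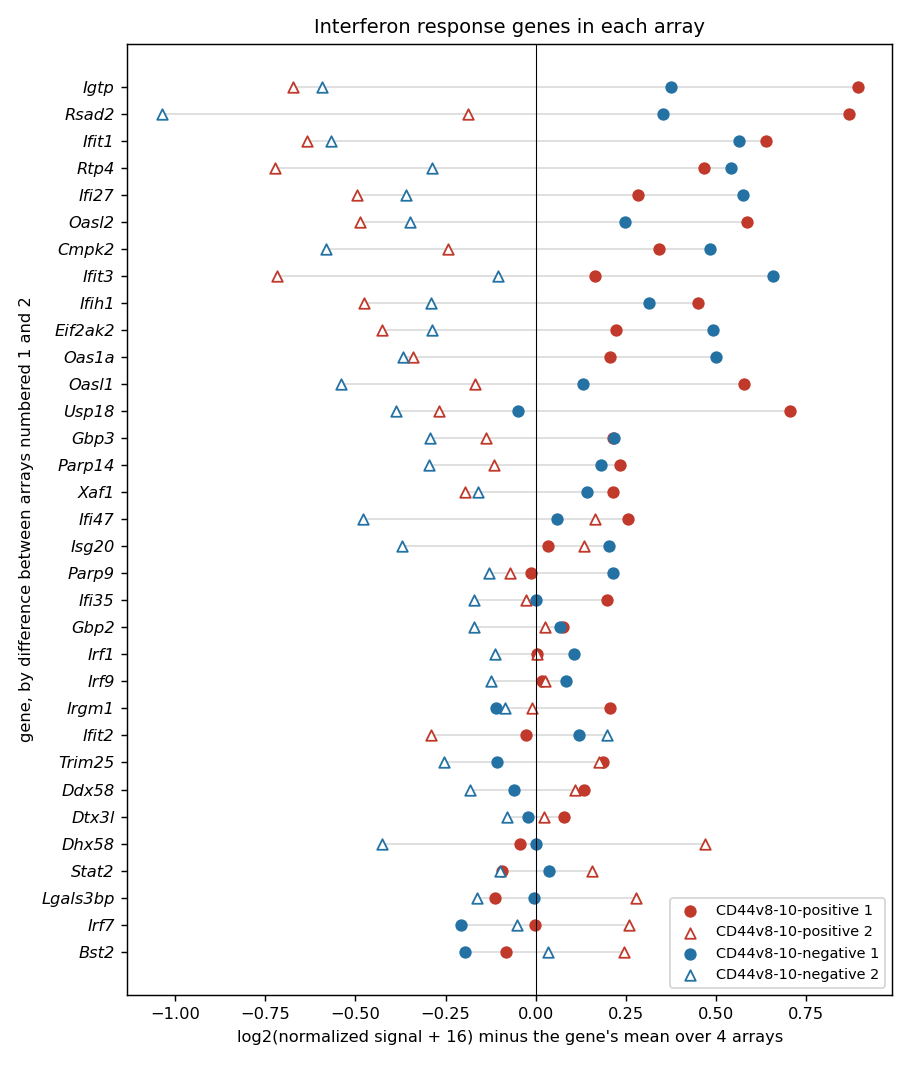
Each row is 1 of the 33 members above the filter, and the points are its 4 arrays as log2(normalized signal + 16) minus the gene's mean, with red for positive, blue for negative, filled circles for arrays numbered 1 and open triangles for those numbered 2. In the upper rows the filled circles lie right of the open triangles whatever their colour, and the rows run from Igtp at 1.27 to Bst2 at -0.28; with no scaling between arrays the member median turns from 0.31 to -0.079, with all genes at -0.36.

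**Figure D2:**
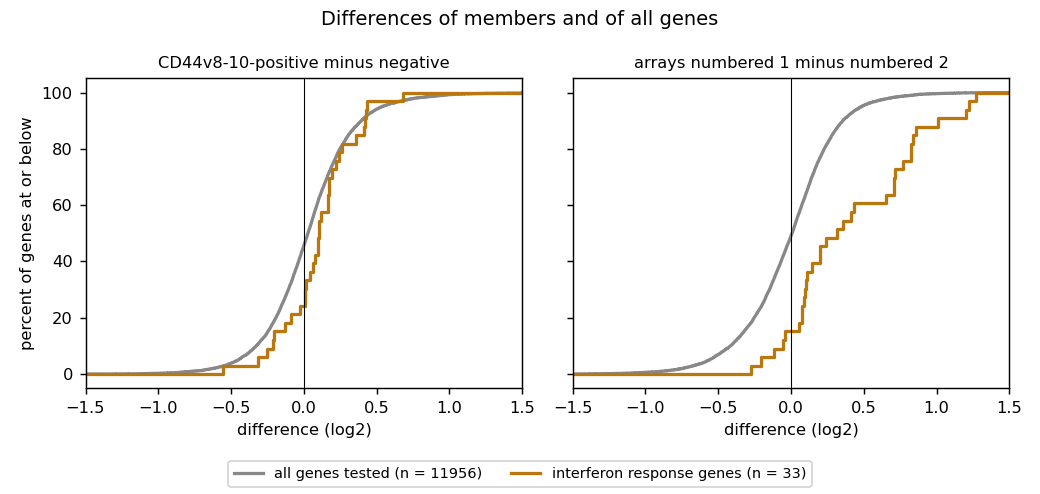
Cumulative percent of genes at or below each log2 difference, for the 33 members and all 11956 genes tested, with positive minus negative on the left and number 1 minus number 2 on the right; the axis is limited to 1.5 on either side. The member curve runs close to that of all genes on the left (medians 0.10 and 0.028, which become -0.11 and -0.15 with no scaling) and to its right on the right (0.31 and 0.0065, or -0.079 and -0.36 with no scaling).

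Single arrays decided whether any member was called by number. Without positive replicate 2, 2 members passed over all genes, Rsad2 (limma adjusted p 0.0410) and Ifit1 (0.0478), among 18 genes called higher and 38 lower of 11915, and the member median was 0.50. Without negative replicate 2, 4 passed: Rtp4 (limma adjusted p 0.0164), Ifit1 (0.0276), Ifi27 (0.0354) and Ifih1 (0.0425), with a member median of 0.25. That fit called 145 genes higher and 193 lower of 12021. In these fits the lone array on 1 side is assumed to vary like the others. Without either array numbered 1 no member passed.

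The transcription factors that carry the signal showed no detectable difference, with medians of 0.053 by CD44v8-10 and 0.022 by number over 4 genes. Signals are given for replicate 1 and then replicate 2 of each group, and those of different probe sets are not comparable in level. Irf9, the DNA-binding partner of STAT2, had normalized signals of 179 and 180.0 on the positive arrays and 188 and 161 on the negative arrays, and the groups overlapped. Its difference was 0.042 between positive and negative (95% interval -0.46 to 0.55) and 0.10 between numbers (-0.37 to 0.57). Stat2, its partner, had 84.5 and 103 on the positive arrays and 93.9 and 84.0 on the negative arrays, with differences of 0.063 and -0.056. Irf1, a factor induced strongly by interferon gamma, had 969 and 968 on the positive arrays and 1041 and 893 on the negative arrays, a range in which no array stood apart, with 0.0059 and 0.11.

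Irf7, which amplifies the production of type I interferon, had 58.4 and 73.1 on the positive arrays and 48.5 and 55.8 on the negative arrays. Its groups did not overlap, positive arrays being higher, but the difference of 0.26 (95% interval -0.40 to 0.92) had an adjusted p of 0.985 by limma. By number it was -0.21, on the opposite side from most members. The small differences of Irf1, Irf9 and Stat2 between positive and negative cells turned below 0 with median centring or no scaling, and those of Irf1 and Irf9 by number did so with no scaling.

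**Figure D3:**
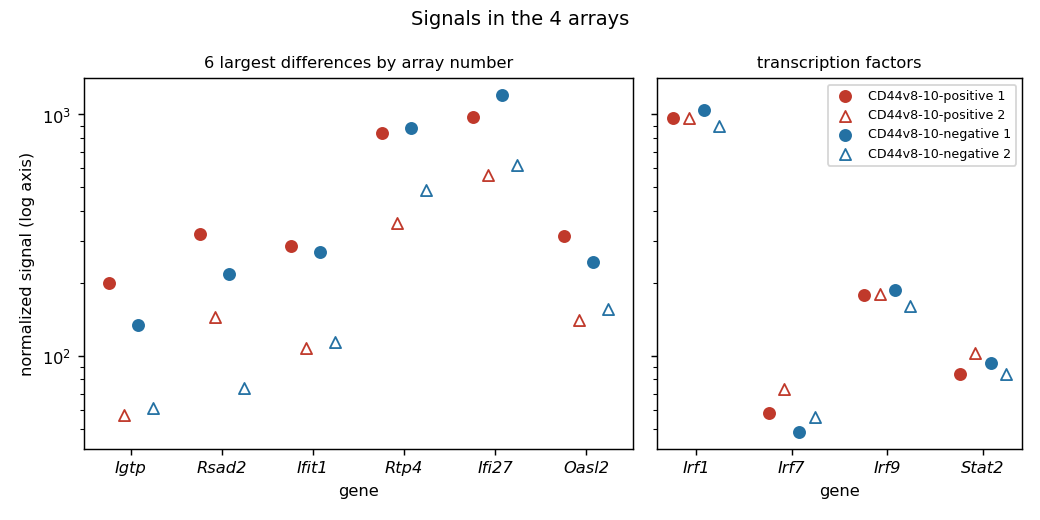
Normalized signal on a log axis in each of the 4 arrays (red positive, blue negative, filled circles number 1, open triangles number 2) for the 6 members with the largest differences by number, left, and the transcription factors, right. In Igtp, Rsad2, Ifit1, Rtp4, Ifi27 and Oasl2 both filled circles lie above both open triangles, while the arrays of Irf7, Irf9 and Stat2 interleave and those of Irf1 span 893 to 1041. In the deposited values, before normalization, the arrays numbered 1 and 2 overlap in Rtp4 and Oasl2.

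Among the sensors of viral RNA, Ifih1 encodes MDA5, which detects long double-stranded RNA. It had 497 and 254 on the positive arrays and 451 and 291 on the negative arrays, so that both arrays numbered 1 were high. The difference by number was 0.77 ± 0.18 (SE; unadjusted p 0.00344, limma adjusted p 0.611), and by CD44v8-10 it was -0.025. Ddx58, which encodes RIG-I, had 441 and 433 on the positive arrays and 383 and 351 on the negative arrays. Its groups did not overlap, with 0.24 by CD44v8-10 and 0.072 by number, but its other 2 probe sets gave -0.11 and -0.34 by CD44v8-10 and 0.35 and 0.54 by number.

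Trim25, a ubiquitin ligase that acts on RIG-I, had 962 and 955 on the positive arrays and 782 and 705 on the negative arrays. The positive arrays were above the negative ones in all 3 of its probe sets, with differences of 0.36, 0.39 and 0.49. That of the probe set used had the lowest unadjusted p of any member for CD44v8-10 (0.0912) and an adjusted p of 0.985 by limma. By number its difference was 0.078, and -0.26 with no scaling. Dhx58, which encodes the regulatory helicase LGP2, was dim, at 18.7 and 33.4 on the positive arrays and 19.7 and 10.6 on the negative arrays, and its difference of 0.43 had a 95% interval of -0.51 to 1.36.

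The IFIT genes lie next to each other on chromosome 19 and encode proteins that bind viral RNA. Ifit1 had 284 and 108 on the positive arrays and 269 and 114 on the negative arrays. Both arrays numbered 1 were well above both numbered 2, by 1.20 ± 0.20 (SE), or 2.30-fold on the same scale (unadjusted p 0.000361, limma adjusted p 0.611), and the difference by CD44v8-10 was 0.0044. Ifit3 had 63.3 and 27.1 on the positive arrays and 95.7 and 49.9 on the negative arrays, and again both arrays numbered 1 were the higher, by 0.82 ± 0.34.

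By CD44v8-10 Ifit3 was -0.55 (95% interval -1.39 to 0.28), the lowest value of any member, although its groups overlapped. Ifit2 had 355 and 294 on the positive arrays and 395 and 418 on the negative arrays, the only member whose positive arrays both lay below the negative ones, with -0.32 and an adjusted p of 0.985 by limma. By number it was 0.091 (95% interval -0.41 to 0.60), and -0.32 with no scaling, and the interval of Ifit1 was 0.74 to 1.66; the gap between these probe sets was not tested. The promoter windows of Ifit2 held no core ISRE letters, whereas those of Ifit1 and Ifit3 each held 2 matches. A link between these letters and the differences by number was not tested. Oasl2, at 0.84 by number, had no match, and Bst2, at -0.28, had 2.

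Members of the OAS family make short adenylate chains that activate RNase L, an activity that some OAS-like proteins have lost. Oas1a had 258 and 171 on the positive arrays and 319 and 167 on the negative arrays, with the arrays numbered 1 high. Oasl1 had 614 and 360.1 on the positive arrays and 447 and 274 on the negative arrays, and its lowest array was negative replicate 2. Before normalization the lowest array of Oasl1 was positive replicate 2. Oasl2 had 315 and 141 on the positive arrays and 246 and 157 on the negative arrays.

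By number all 3 lay on the same side, at 0.71, 0.71 and 0.84 in that order, with unadjusted p-values of 0.00878, 0.0149 and 0.00479 and a limma adjusted p of 0.611 for each. By CD44v8-10 they were -0.13, 0.41 and 0.10. The paralogs Oas1a and Oas1g are near-identical, so their signals may not be separable on this array. Oas2 and Oas3 were below the filter, with signals from 9.25 to 35.5 in any array, and were not tested.

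Usp18, the protease that removes ISG15 from proteins and dampens the type I receptor, had 66.4 and 26.0 on the positive arrays and 32.8 and 22.7 on the negative arrays. Positive replicate 1 stood above the other 3 arrays. The differences were 0.44 by CD44v8-10 (95% interval -0.45 to 1.32) and 0.65 by number (-0.20 to 1.51).

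Interferon-inducible GTPases attack the membranes around intracellular pathogens and are typical targets of interferon gamma. Igtp, also called Irgm3, had 200.4 and 57.1 on the positive arrays and 135 and 61.2 on the negative arrays. The arrays numbered 1 lay above those numbered 2 by 1.27 ± 0.26 (SE), or 2.41-fold, the largest difference by number of any member (unadjusted p 0.00151, limma adjusted p 0.611). Ifi47 followed another pattern, at 497 and 466 on the positive arrays and 432 and 292 on the negative arrays, with negative replicate 2 low and the groups apart. Before normalization its groups overlapped, and negative replicate 2, at 423.6, lay above negative replicate 1, at 332.5.

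The difference of Ifi47 by CD44v8-10 was 0.42 (95% interval -0.094 to 0.93), and by number 0.31, which was -0.086 with no scaling. The remaining 3 GTPases above the filter, Irgm1, Gbp2 and Gbp3, had differences of 0.20, 0.10 and 0.075 by CD44v8-10 and 0.094, 0.14 and 0.43 by number. The 5 genes of this class thus ran from 0.094 to 1.27 by number. The second probe set of Gbp2, of the less specific kind, gave 0.39 by number and -0.061 by CD44v8-10. The antiviral GTPases Mx1 and Mx2, which are defective in many laboratory mouse strains, were below the filter. Mx1 had 21.6 and 30.3 on the positive arrays and 2.10 and 14.8 on the negative arrays, and Mx2 stayed between 3.33 and 8.33.

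Rsad2 and Cmpk2 are neighbours on chromosome 12 and encode viperin, which makes a chain-terminating nucleotide, and a nucleotide kinase that supplies it. Rsad2 had 321 and 146 on the positive arrays and 219.5 and 73.8 on the negative arrays, with negative replicate 2 the lowest. By number it differed by 1.22 ± 0.32 (SE), or 2.34-fold (limma adjusted p 0.611), and its other probe sets gave 1.06 and 0.84. By CD44v8-10 it was 0.68 (95% interval -0.24 to 1.60), the highest value of any member, while the other probe sets gave 0.22 and 0.25.

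Cmpk2 had 113 and 70.3 on the positive arrays and 127 and 52.3 on the negative arrays, so that it too was high on both arrays numbered 1, by 0.83, and by 0.34 in its second probe set. Eif2ak2 encodes PKR, a kinase that stops translation on binding double-stranded RNA. It had 428 and 267 on the positive arrays and 519.9 and 296 on the negative arrays, and its 3 probe sets gave 0.71, 0.73 and 0.82 by number and -0.21, -0.51 and -0.29 by CD44v8-10. The 3 probe sets thus shared a direction in each comparison, but the probe set tested had unadjusted p-values of 0.00607 and 0.499.

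Rtp4, a chaperone of membrane receptors that is strongly induced by type I interferon, had 835 and 357 on the positive arrays and 879.8 and 488 on the negative arrays. The arrays numbered 1 exceeded those numbered 2 by 1.01 ± 0.20 (SE), or 2.01-fold (unadjusted p 0.00103, limma adjusted p 0.611), while its dim second probe set gave 0.29. Ifi27, a protein of mitochondrial and nuclear membranes, had 979 and 563 on the positive arrays and 1201 and 621 on the negative arrays. Its difference was 0.86 ± 0.17 by number (limma adjusted p 0.611) and -0.21 by CD44v8-10, and its second probe set, of the less specific kind, gave 0.28 by number.

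Other effectors had smaller differences in the probe sets used. Ifi35, a partner of the adaptor NMI, had 1558 and 1331 on the positive arrays and 1356 and 1201 on the negative arrays, with 0.20 by number and 0.17 by CD44v8-10. That probe set is of the less specific kind, and the further probe sets of Ifi35 gave 0.34 and 0.58 by number and 0.23 and -0.0062 by CD44v8-10. Isg20, an RNA exonuclease, had 738 and 791 on the positive arrays and 830.3 and 553 on the negative arrays, where negative replicate 2 was low, with 0.24 and 0.17. Before normalization negative replicate 2 was instead the highest array of Isg20, at 780.8 against 649.1 to 698.3. With no scaling the differences of both genes by number and by CD44v8-10 were below 0. Xaf1, a pro-apoptotic factor, had 0.36 by number with both arrays numbered 1 higher.

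Bst2, which encodes tetherin, a protein that holds budding virus at the cell surface, had 338 and 428 on the positive arrays and 311 and 368 on the negative arrays. Both arrays numbered 2 were above both numbered 1, and the difference was -0.28 (95% interval -0.71 to 0.15), and its promoter held a pair of ISRE matches. Lgals3bp, a secreted glycoprotein, was also below 0 by number at -0.12. Parp9, Parp14 and the ubiquitin ligase Dtx3l, which binds PARP9, had 0.20, 0.41 and 0.057 by number and -0.085, 0.12 and 0.10 by CD44v8-10. The second probe set of Dtx3l turned both signs, with -0.34 by number and -0.14 by CD44v8-10. That of Parp14, which was dim, gave 0.90 by number and -0.53 by CD44v8-10.

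Further probe sets of the same genes lay mostly above 0 by number, as the probe sets used did. There were 17 above the filter for 12 of the members, read from the same RNA. Number 1 exceeded number 2 in 14 of the 17, with a median of 0.35 and a range from -0.34 to 1.06. Positive exceeded negative in 7 of 17, with a median of -0.061, on the other side of 0 from the 0.10 of the probe sets used.

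Members were divided by whether ISRE letters lay in their promoter. By number, the 13 members above the filter with a match had a median of 0.71 and 11 above 0, and the 14 with a window and no match had a median of 0.15 and 12 above 0. By CD44v8-10 the medians were 0.075 and 0.13. The ranges overlapped widely, since Bst2 at -0.28 had a match and Oasl2 at 0.84 had none in its window. No test was made of this split. Outside the members the medians by number were 0.022 for 328 tested genes with a match and 0.0051 for 9312 without one.

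Other genes of the pathway, taken from lists, were set beside the members. Of 54 other interferon-stimulated genes listed, 37 were above the filter, and 25 of these lay above 0 by number with a median of 0.17 (-0.22 with no scaling, 0.15 above all genes), while 16 lay above 0 by CD44v8-10 with a median of -0.038. None passed over all genes in either comparison (limma, adjusted). At an unadjusted p under 0.05 by number (limma), 3.25% of all genes were higher and 4.47% lower. In this list 5 were higher on number 1: Gbp7 (1.12), Ddx60 (1.00), Samd9l (0.85), Cxcl10 (0.81) and Cxcl11 (0.86). Uba7, which activates ISG15 for conjugation, was lower, at -0.88. These 6 were named after their values were seen.

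Ligands, receptors and signalling genes lay mostly below 0 by number. Of 14 above the filter 4 lay above 0, with a median of -0.11, and none had an unadjusted p under 0.05 (limma, lowest among them that of Ptpn2, 0.0644). The receptor chains Ifnar1 and Ifnar2 for type I interferon had differences by number of 0.18 and -0.11, and by CD44v8-10 of -0.24 and -0.34. Ifnlr1, a receptor chain for interferon lambda, had 0.79 by CD44v8-10, the largest of the list (unadjusted p 0.0341, limma adjusted p 0.985), and -0.47 by number. Ifngr1 and Ifngr2, for interferon gamma, had -0.056 and 0.26 by number. The kinases Jak1 and Tyk2 had -0.15 and -0.35.

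Those interferon transcripts of the list that the array measured were dim. Ifne, Ifnk, Ifnl2 and Ifnl3 had no probe set of their own and could not be seen. Ifna1, Ifna2, Ifna4 and Ifna5 were below the filter, with Ifna1 reaching 49.25 on positive replicate 2. Ifnb1 had 30.7 and 50.8 on the positive arrays and 29.4 and 30.2 on the negative arrays, with positive replicate 2 the highest, and Ifng stayed between 1.08 and 8.68. Of 15 sensing genes upstream of interferon 8 lay above 0 by number with a median of 0.024, and of 13 genes of class I antigen presentation, many of them also inducible by interferon, 5 did with a median of -0.032. With no scaling these lists had medians of -0.30 and -0.39, with all genes at -0.36, and with median centring that of class I genes turned to 0.0048. None of these lists held a gene past the adjusted threshold in either comparison (limma). By number, the sensing and class I lists each held 1 gene with an unadjusted p under 0.05 (limma). These were Zbp1 (1.11) and Pdia3 (0.36), both higher on number 1 as 3.25% of all genes were, and named after their values were seen.

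**Figure D4:**
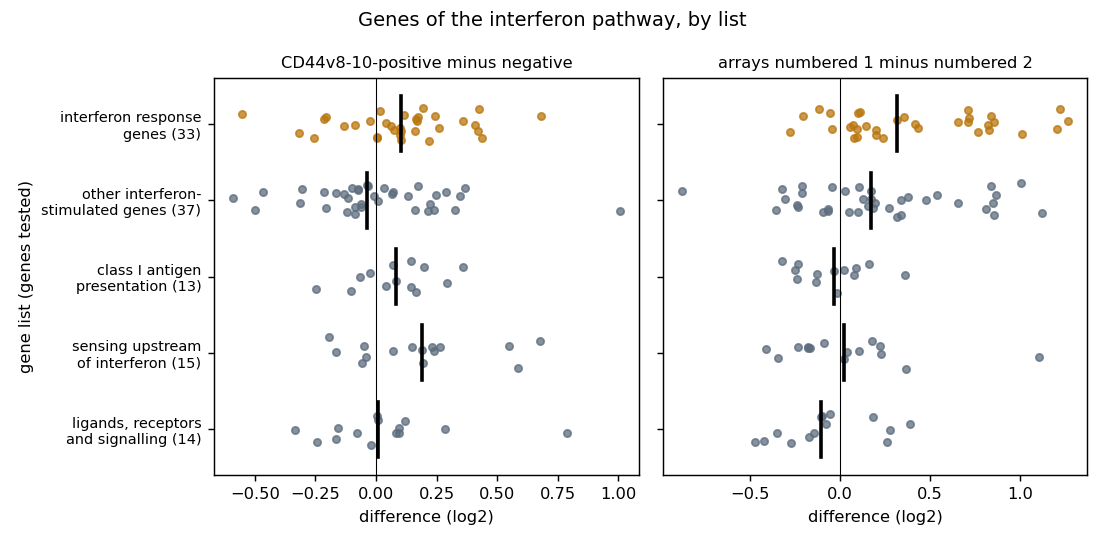
Each point is a gene above the filter and each black bar a list's median log2 difference, with positive minus negative on the left and number 1 minus number 2 on the right; vertical scatter within a list has no meaning. By number the medians are 0.31 for the members, 0.17 for other interferon-stimulated genes, -0.032 for class I antigen presentation, 0.024 for sensing genes and -0.11 for ligands, receptors and signalling; with no scaling all 5 medians lie below 0, as that of all genes does at -0.36, and the class I median is above 0 with median centring.

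Markers of other cells were mostly dim. Of 14 macrophage markers 6 were above the filter, and their signals summed to 519 and 621 on the positive arrays and 431 and 411 on the negative arrays. The brightest was Cd14 at 180 to 259, and those below the filter ran from 0.775 in Itgam to 45.6 in Lyz2. In 4 of the 6 both positive arrays lay above both negative ones, where 18.5% of all genes did so. By number the 6 had a median of -0.068 and by CD44v8-10 of 0.35, and their part in the CD44v8-10 values was not tested. Of 10 lymphocyte and NK markers 1 was above the filter, and the others ran from 1.00 in Cd2 to 30.5 in Ms4a1. Of 8 listed markers of plasmacytoid dendritic cells, the main producers of type I interferon in blood, 5 were above the filter. They were Tcf4, the brightest at 972 to 1884, Irf8, Klk1, Cox6a2 and the member Bst2, with medians of 0.15 by number and -0.11 by CD44v8-10. Siglech, from the same list, was below the filter, with 21.0 and 2.90 on the positive arrays and 10.5 and 6.58 on the negative arrays. Fibroblast markers had 3 of 8 and endothelial markers 1 of 8 above the filter, with medians by number of -0.15 and -0.12.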

How the data were processed

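The authors deposited 1 linear intensity per probe set and array for 4 arrays. The submitters' processing notes name GCOS without a role, and how probes were summarised, corrected or scaled is not given in the sources used. Genes were named from the platform annotation of the deposited table, and promoters came from RefSeq tables of GRCm38.p6. Intensities were quantile normalized between arrays, transformed as log2(value + 16), freed of 64 control probe sets and filtered at the 40th percentile of mean log2 value. Each gene took its brightest probe set. Groups, and apart from them arrays numbered 1 and 2, were compared by two-sided linear models in limma 3.58.1 with a variance trend (R 4.3.3), and p-values were adjusted over all genes by Benjamini and Hochberg (threshold 0.05). The fit was also run on simulated data with independent noise and no effect of array number. That run cannot speak to differences by number that genes share in these arrays. The median standard error of a log2 difference was 0.24 by group and 0.22 by number. The number of arrays limits the precision.

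All members were named. Values in every array were given for the 6 members with the largest difference in each comparison, the 5 brightest, Irf1, Irf7, Irf9 and Stat2, and, after values were seen, the members with an unadjusted p under 0.05, Ifit2, Ddx58, Bst2 and Mx1. The members and lists were chosen with earlier results of these data known. Alternatives were median centring, no scaling, one trimmed mean, pseudocounts of 1 and 64, the 60th percentile as filter or none, averaged probe sets, exclusion of probe sets marked as less specific, other eBayes priors, a block and leaving out each array.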

Additional observations from a re-analysis of the deposited data

How the results depend on the processing

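By CD44v8-10 no member passed under any of the 16 alternatives, and the member median ran from -0.11 to 0.25. With the replicate number as a block no member passed either (limma, lowest adjusted p 0.460), while calls over all genes went from 9 higher and 0 lower to 15 and 3. Under that block Rsad2 had an unadjusted p of 0.00789, against 0.132 without it. The deviations of same-numbered arrays correlated at 0.12 over all genes and at 0.75 over the 33 members, and the labels do not say what a number marks, so the numbers were not taken as pairs. By number the median was -0.079 with no scaling (all genes -0.36) and from 0.24 to 0.36 under the other alternatives that kept all arrays; without 1 array it ran from 0.25 to 0.50 and the members called from 0 to 4. Members higher at an unadjusted p under 0.05 went from 12 (all genes 389 higher, 535 lower) to 1 with no scaling (12 and 923). They were 8 without positive replicate 1 (97 and 286), 14 without positive replicate 2 (1166 and 1025), 9 without negative replicate 1 (86 and 193) and 12 without negative replicate 2 (1431 and 1493), where 1 member was lower. By CD44v8-10, leaving out these arrays in the same order gave member medians of 0.0063, 0.24, 0.25 and -0.084. Those of all genes were 0.047, 0.016, 0.033 and 0.012. With the CD44v8-10 group as a block the lowest adjusted p of a member was 0.0801 (limma).

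Single members turned sign, some of them not near 0. By CD44v8-10, median centring gave Ifit1 -0.11, Oasl2 -0.027, Irf1 -0.11, Irf9 -0.10 and Stat2 -0.069. No scaling gave Ifit1 -0.19, Oasl2 -0.11, Ifi35 -0.025, Irf1 -0.19, Isg20 -0.033, Irf9 -0.18, Stat2 -0.15 and Cmpk2 -0.041. One trimmed mean gave Ifit1 -0.026, Irf1 -0.0049 and Irf9 -0.0063, and the mean of probe sets gave Rtp4 0.025 and Cmpk2 -0.076. By number, no scaling gave Ifi47 -0.086, Ifi35 -0.11, Irf1 -0.23, Trim25 -0.26, Isg20 -0.12, Irf9 -0.33 and Ifit2 -0.32, one trimmed mean gave Irf9 -0.00011, and a pseudocount of 1 gave Dhx58 0.016.

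Leaving out 1 array turned the CD44v8-10 difference of 15 named members: Rsad2 ran from -0.0087 to 1.39, Usp18 from -0.052 to 0.97, Igtp from -0.56 to 1.02, Ifit1 from -0.63 to 0.65, Rtp4 from -0.84 to 0.34, Ifi27 from -0.69 to 0.25, Oasl2 from -0.44 to 0.64, Irf1 from -0.11 to 0.11, Isg20 from -0.12 to 0.45, Irf9 from -0.061 to 0.15, Stat2 from -0.063 to 0.19, Oas1a from -0.57 to 0.30, Ifih1 from -0.49 to 0.44, Eif2ak2 from -0.60 to 0.18 and Cmpk2 from -0.42 to 0.41. By number it turned Ifi47 (-0.0081 to 0.64), Trim25 (-0.14 to 0.30), Isg20 (-0.015 to 0.49), Stat2 (-0.18 to 0.074) and Ifit2 (-0.15 to 0.34). The causes were not tested. Dim members such as Dhx58 have inexact differences.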

Other observations

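Chemokines that interferon induces were measured beside the members. Cxcl10 had 249 and 156 on the positive arrays and 259 and 122 on the negative arrays, and Cxcl11 had 102 and 42.8 on the positive arrays and 69.3 and 35.6 on the negative arrays, each with both arrays numbered 1 above both numbered 2. Ccl5, a chemokine for T cells, had 454 and 225 on the positive arrays and 201 and 114 on the negative arrays, with differences of 0.85 by number and 1.01 by CD44v8-10, and positive arrays both above negative ones. None passed limma's adjusted threshold in either comparison, and they were named after their values were seen.

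Tested genes with core ISRE letters in their promoter were also compared by number. Outside the members, 328 tested genes had a match in a promoter window, and their median difference by number was 0.022 with 52.4% above 0, beside 0.0051 and 50.8% for 9312 tested genes without one. Both arrays numbered 1 lay above both numbered 2 in 21% and 20.4% of these genes.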
